A study of Mus musculus with 24 samples.

Results

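The ovary comparison set 3 libraries labelled Kdm4a KO against 3 labelled WT, 6 of the 24 libraries of a bulk RNA sequencing study of female mice. The other 18 came from uterus, pituitary and hypothalamus with the same design and are used here where an ovarian difference is set against them. KO-labelled females were of the C57BL6 strain, 8 to 10 weeks old and killed 2.5 days after a timed mating, and the wild-type females shared that strain, age range, mating and day. All females of both genotypes were virgin before that mating and briefly exposed beforehand to bedding of the stud male, and each library was made from whole ovary freed of fat. The labels give no allele, no promoter or Cre driver, no littermate relation and no statement on how many animals went into a library. They call the libraries biological replicates.

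KDM4A removes methyl groups from lysines of histone H3, acting on the di- and trimethylated forms of H3K9 and H3K36, marks of silenced chromatin and of transcribed gene bodies. In the mouse, mating triggers prolactin surges that keep the newly formed corpora lutea alive, and these make the progesterone that prepares the uterus for implantation. A whole ovary at that time holds corpora lutea, growing follicles with oocytes, granulosa and theca cells, stroma, vessels, immune cells and a thin surface epithelium. In bulk RNA of such an organ, fewer cells of a type and less RNA per cell cannot be told apart.

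The 6 libraries held 14574041 to 19901086 counts, so 1 count was worth 0.0502 to 0.0686 CPM before TMM scaling. CPM set each count against the total of its library, and the CPM values below are TMM-scaled, which makes libraries comparable for 1 gene but not genes of different length with each other. Library KO2 stood apart. The leading principal component of log CPM took 53.5% of the variance and put KO2 at 97.2 and the other 5 between -39.4 and -6.94. The 45S ribosomal RNA precursor Rn45s took 3.87% of its counts and 0.0802% to 0.168% of the others'. Across genes its deviations had a rank correlation of -0.38 with transcript length, and those of the others had 0.15 to 0.23. With GC content the rank correlations were 0.11, 0.26 and 0.02 in KO1, KO2 and KO3. They were -0.37, -0.35 and 0.02 in WT1, WT2 and WT3, so in GC content WT1 and WT2 stood apart as well. Because KO2 stood apart most, results are given with and without it. Leaving it out keeps WT1 and WT2 and so does not address their GC trend. The tissue label held in all 6 libraries, since the oocyte gene Gdf9, the granulosa gene Fshr and the luteal gene Lhcgr were counted in each.

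Kdm4a itself (chromosome 4, 118136957 to 118180043, mm10) measured 95.5, 41.2 and 73.5 CPM in KO-labelled libraries, against 85.1, 87.0 and 91.4 CPM in wild-type libraries. The highest of the 6 values was that of KO1 and the lowest that of KO2, and the groups overlapped. The log2 fold change of KO-labelled over wild-type libraries was -0.33 (SE 0.29, edgeR adjusted p = 0.667), and -0.04 without KO2. A count over a whole gene does not show whether part of it is deleted. Because the target's counts did not separate the genotypes, the libraries are called KO-labelled. Of its relatives, which encode demethylases of the same family, Kdm4b measured 44.2, 30.6 and 45.2 CPM in KO-labelled libraries, against 38.0, 33.3 and 43.7 CPM in wild-type libraries. Kdm4c measured 50.2, 34.4 and 54.4 CPM in KO-labelled libraries, against 54.5, 56.6 and 49.0 CPM in wild-type libraries. Kdm4d had 20, 6 and 18 counts in KO-labelled libraries and 8, 1 and 5 in wild-type libraries, too few for the test over 6 libraries. Without KO2 it was tested, and of the 4 Kdm4 genes it was the 1 higher at an unadjusted edgeR p under 0.05, against 5.61% of all genes. It passed the count filter there through KO1 and KO3, the libraries with its highest counts, so no conclusion is drawn from that p.

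No gene of 14460 passed a false discovery rate of 0.05 by edgeR's quasi-likelihood test (0%), and limma-voom also passed 0. An unadjusted edgeR p under 0.05 was found for 1110 genes (7.68%), of which 598 (4.14%) were higher and 512 (3.54%) lower. That number was 492 without WT1, 416 without WT2, 1859 without KO1 and 1624 without KO2. DESeq2 passed 48 of 14439 genes (0.332%), and 53 of 13166 genes (0.403%) had an adjusted p under 0.05 in the authors' deposited table, 15 higher (0.114%) and 38 lower (0.289%). The 3 values of each genotype did not overlap for 2571 genes (17.8%), 1121 higher (7.75%) and 1450 lower (10%). Leaving out KO2 gave 2 of 14803 genes at FDR 0.05 (0.0135%), Mgat4c and Klhl31, both lower in KO-labelled libraries.

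**Figure D1:**
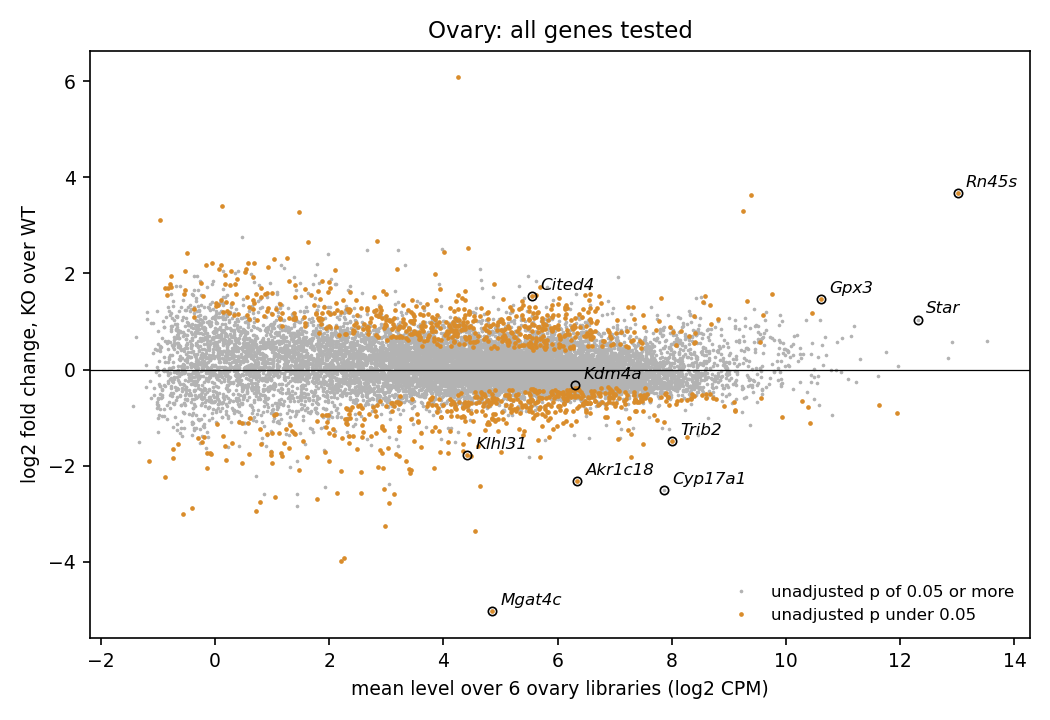
Log2 fold change of KO-labelled over wild-type ovary libraries (vertical axis) against the mean level in log2 CPM (horizontal axis) for the 14460 genes tested. Orange points have an unadjusted edgeR p under 0.05, 10 genes are circled and named, and none of the points passed FDR 0.05. Mgat4c lies lowest at -5.02.

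The 15 genes lower in KO-labelled libraries with the smallest p, taken among genes whose groups do not overlap, opened with Mgat4c (chromosome 10, 101681487 to 102391469, mm10), a member of the family of N-acetylglucosaminyltransferases that branch N-linked sugar chains. It measured 1.78, 0.783 and 2.50 CPM in KO-labelled libraries, against 68.1, 63.8 and 37.3 CPM in wild-type libraries. The 3 KO-labelled libraries held traces of it and every wild-type library held a level many times above them. The log2 fold change was -5.02 (SE 0.45, edgeR adjusted p = 0.0875), and -4.71 without KO2 (edgeR adjusted p = 0.0391). Klhl31 (chromosome 9, 77636500 to 77660127), a Kelch-repeat protein known from muscle, measured 7.63, 11.9 and 9.32 CPM in KO-labelled libraries, against 33.0, 35.1 and 30.7 CPM in wild-type libraries. Its lowest wild-type value lay well above its highest KO-labelled one, and its log2 fold change came to -1.78 with an SE of 0.23 (adjusted p = 0.530, edgeR), or -1.95 without KO2 (adjusted p = 0.0391, edgeR). Trib2 (chromosome 12, 15791727 to 15816922), a pseudokinase that scaffolds protein degradation, measured 132, 99.9 and 174 CPM in KO-labelled libraries, against 403, 402 and 336 CPM in wild-type libraries. The wild-type values lay close together and the KO-labelled ones spread further, and the log2 fold change was -1.49 (SE 0.25), or -1.30 without KO2.

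The next of these genes encode receptors, transporters and enzymes. Ptprt, a receptor tyrosine phosphatase, measured 1.59, 1.72 and 1.77 CPM in KO-labelled libraries, against 6.03, 7.82 and 5.15 CPM in wild-type libraries. Il13ra2, a decoy receptor for interleukin 13, measured 3.65, 1.88 and 1.51 CPM in KO-labelled libraries, against 11.9, 18.8 and 9.03 CPM in wild-type libraries. Gpr165, an orphan G protein-coupled receptor, measured 2.67, 0.626 and 1.72 CPM in KO-labelled libraries, against 9.96, 10.5 and 9.74 CPM in wild-type libraries. In these 3 receptor genes all KO-labelled libraries lay far below the wild-type ones, at log2 fold changes of -1.90, -2.48 and -2.56. Slc38a5, an amino acid transporter, measured 51.5, 42.5 and 35.6 CPM in KO-labelled libraries, against 88.8, 82.3 and 108 CPM in wild-type libraries. Oca2, a melanosomal membrane protein, measured 1.498, 1.96 and 2.81 CPM in KO-labelled libraries, against 19.7, 17.7 and 5.80 CPM in wild-type libraries. For Oca2 the wild-type library WT3 lay nearer to the KO-labelled range than to WT1 and WT2. Car14, a carbonic anhydrase, measured 36.5, 39.2 and 35.7 CPM in KO-labelled libraries, against 88.3, 60.2 and 81.5 CPM in wild-type libraries, but its exons overlap those of Aph1a on the other strand, which the unstranded counts cannot separate. The log2 fold changes of these 3 were -1.11, -2.78 and -1.05.

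Of the remaining 6, Lipo1, a lipase family member, measured 16.5, 14.2 and 20.2 CPM in KO-labelled libraries, against 38.0, 39.3 and 34.5 CPM in wild-type libraries. Mark1, a microtubule affinity-regulating kinase, measured 67.8, 65.5 and 62.2 CPM in KO-labelled libraries, against 123, 107 and 119 CPM in wild-type libraries. The groups overlapped in neither gene, as the choice of the 15 required. Tmem100, a membrane protein of BMP-responsive endothelium, measured 34.9, 30.7 and 32.0 CPM in KO-labelled libraries, against 74.0, 91.6 and 53.6 CPM in wild-type libraries. Tox2, an HMG-box transcription factor, measured 26.1, 26.9 and 25.8 CPM in KO-labelled libraries, against 48.5, 43.5 and 49.4 CPM in wild-type libraries. These 4 differed by -1.13, -0.84, -1.17 and -0.84 on the log2 scale. In each the groups lay apart, again by that choice, and the wild-type values of Tmem100 were the most spread. Mid1ip1, a stimulator of acetyl-CoA carboxylase, and Gdpd2, a glycerophosphodiester phosphodiesterase, had fold changes of -0.86 and -1.73, and both overlap predicted genes on the other strand. All edgeR adjusted p of the 15 lay between 0.0875 and 0.597. All 15 stood among the calls of the authors' deposited table and of DESeq2, and 7 among those of a single edgeR fit over the 24 libraries, which passed 34 of 16971 genes (0.2%), 11 higher (0.0648%) and 23 lower (0.136%).

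**Figure D2:**
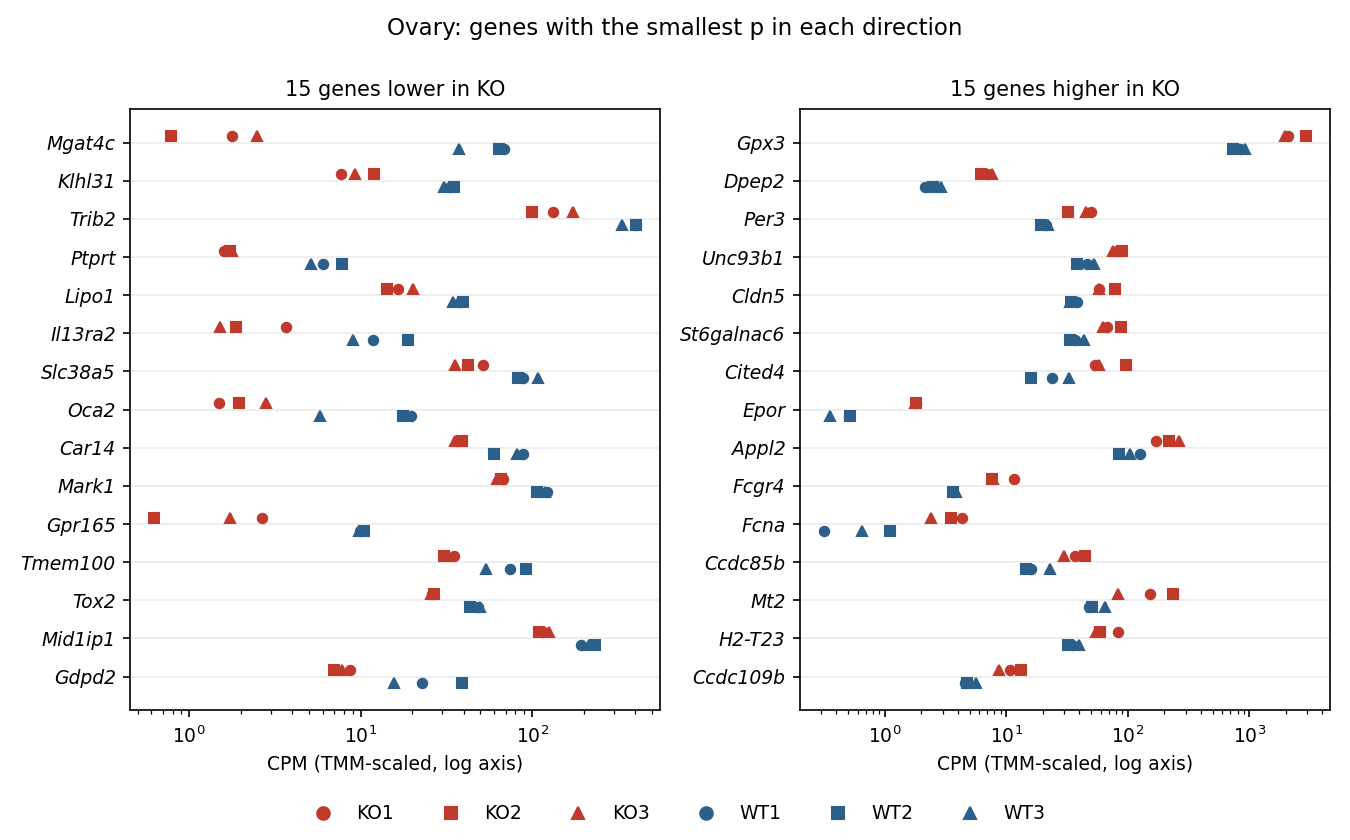
CPM on a log axis in each of the 3 KO-labelled (red) and 3 wild-type (blue) ovary libraries, marked by shape, for the 15 genes with the smallest p in each direction whose groups do not overlap. Mgat4c shows the widest gap, with KO-labelled values of 0.783 to 2.50 CPM and wild-type values of 37.3 to 68.1 CPM, while for Mid1ip1 or H2-T23 the groups lie close.

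Among the 15 genes higher in KO-labelled libraries, Gpx3 (chromosome 11, 54902453 to 54910377), the secreted glutathione peroxidase, came first. It measured 2071, 2911 and 1951 CPM in KO-labelled libraries, against 844, 741 and 928 CPM in wild-type libraries. Each KO-labelled library held more than each wild-type one by a wide margin, and the log2 fold change was 1.46 with an SE of 0.27 (adjusted p = 0.597, edgeR), or 1.28 without KO2 (adjusted p = 0.0754, edgeR). Cited4, a CBP/p300-interacting cofactor that the luteinizing hormone surge induces in granulosa cells, measured 53.3, 97.5 and 57.4 CPM in KO-labelled libraries, against 23.8, 16.0 and 32.7 CPM in wild-type libraries, with a log2 fold change of 1.52 and KO2 the highest. Per3, a component of the circadian clock, measured 49.6, 32.2 and 45.4 CPM in KO-labelled libraries, against 21.4, 19.5 and 21.9 CPM in wild-type libraries, at 1.02, here with KO2 the lowest of the KO-labelled libraries.

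Several of the higher genes belong to myeloid cells or to the innate response. Unc93b1, which carries nucleic acid-sensing Toll-like receptors to endosomes, measured 81.8, 90.1 and 75.9 CPM in KO-labelled libraries, against 46.4, 38.3 and 52.6 CPM in wild-type libraries. The IgG receptor gene Fcgr4 measured 11.6, 7.59 and 7.81 CPM in KO-labelled libraries, against 3.62, 3.65 and 3.84 CPM in wild-type libraries. Fcna, a macrophage lectin that shares exon bases with an antisense transcript, measured 4.35, 3.52 and 2.40 CPM in KO-labelled libraries, against 0.317, 1.11 and 0.656 CPM in wild-type libraries. Their log2 fold changes were 0.85, 1.28 and 2.30. H2-T23, a non-classical MHC class I gene, measured 83.7, 59.6 and 54.6 CPM in KO-labelled libraries, against 34.9, 32.0 and 39.7 CPM in wild-type libraries, at 0.89. Its family is made of near-identical copies, between which reads can be split, so its value is uncertain. Cldn5, the tight junction claudin of endothelium, measured 57.9, 79.0 and 58.4 CPM in KO-labelled libraries, against 38.5, 34.1 and 33.6 CPM in wild-type libraries, at 0.88, and the erythropoietin receptor gene Epor measured 1.83, 1.80 and 1.77 CPM in KO-labelled libraries, against 0.507, 0.521 and 0.353 CPM in wild-type libraries, at 1.96.

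The other 6 higher genes were Dpep2, a membrane dipeptidase (1.45), the ganglioside sialyltransferase St6galnac6 (0.92), the endosomal adaptor Appl2 (1.05), Ccdc85b (1.06), the metallothionein Mt2 (1.53), and Ccdc109b, the inhibitory subunit of the mitochondrial calcium uniporter (1.12) (all log2 fold changes). Mt2 measured 152, 236 and 83.0 CPM in KO-labelled libraries, against 47.6, 50.3 and 65.5 CPM in wild-type libraries, with KO3 near the wild-type range. The exons of Dpep2, Ccdc85b and Mt2 overlap those of other genes, for Ccdc85b over 1163 bases of Fosl1. Of the 15 higher genes 11 stood among the calls of the authors' deposited table and 3 among those of the fit over 24 libraries. All had an edgeR adjusted p of 0.597.

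The promoters of 3 of these leading genes are shown because their CpG content, which relates to how a promoter is handled by chromatin, differs widely. Each window runs from 250 bases before to 50 after a transcription start in RefSeq (GRCm38.p6) on the gene's strand, with CpG dinucleotides in capitals. The windows are chr9:77636482-77636781 on the plus strand for Klhl31, chr12:15816736-15817035 on the minus strand for Trib2 and chr11:54902604-54902903 on the plus strand for Gpx3.
Klhl31: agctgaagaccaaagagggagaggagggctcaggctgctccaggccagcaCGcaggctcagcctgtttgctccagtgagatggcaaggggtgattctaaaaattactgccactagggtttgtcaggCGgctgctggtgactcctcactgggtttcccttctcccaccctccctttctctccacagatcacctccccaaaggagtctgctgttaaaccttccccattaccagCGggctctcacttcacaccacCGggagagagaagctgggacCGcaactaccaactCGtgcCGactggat
Trib2: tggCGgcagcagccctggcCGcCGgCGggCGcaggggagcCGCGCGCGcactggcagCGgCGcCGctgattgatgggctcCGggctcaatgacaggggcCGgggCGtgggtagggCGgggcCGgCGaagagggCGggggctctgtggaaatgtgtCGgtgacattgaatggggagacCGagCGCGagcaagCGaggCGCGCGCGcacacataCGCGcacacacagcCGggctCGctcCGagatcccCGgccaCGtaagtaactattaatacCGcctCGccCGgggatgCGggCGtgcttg
Gpx3: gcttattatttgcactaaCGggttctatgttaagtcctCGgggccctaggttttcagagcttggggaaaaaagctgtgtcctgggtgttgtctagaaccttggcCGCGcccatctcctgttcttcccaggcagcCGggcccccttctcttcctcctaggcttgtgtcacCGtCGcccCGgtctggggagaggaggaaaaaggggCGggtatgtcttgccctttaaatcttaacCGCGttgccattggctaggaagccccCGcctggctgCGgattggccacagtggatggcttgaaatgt
They hold 7, 40 and 13 CpG dinucleotides, against a median of 7 over all 32851 promoters in the same table. Over the genes with a promoter entry, the median was 9 for 14 of the 15 lower genes and 12.5 for 12 of the 15 higher genes. The lower genes thus included both CpG-poor and CpG-rich promoters.

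Among the lower genes 2 differed between genotypes in the ovary more than in the other tissues, by a test of that difference over all 24 libraries. That test compared the ovarian genotype effect with the mean effect of uterus, pituitary and hypothalamus, and 2 of 16971 genes passed FDR 0.05 (0.0118%), both lower in the ovary, Mgat4c and Trib2. Scaled over 24 libraries, Mgat4c measured 1.49, 0.631 and 2.09 CPM in KO-labelled ovaries and 56.1, 52.4 and 30.9 CPM in wild-type ovaries. In the pituitary it measured 11.3, 16.5 and 19.1 CPM in KO-labelled and 13.0, 14.6 and 16.5 CPM in wild-type libraries. In the hypothalamus it measured 28.3, 13.7 and 40.6 CPM in KO-labelled and 47.2, 47.2 and 39.9 CPM in wild-type libraries. The wild-type ovary values thus spanned those of the wild-type hypothalamus, and the KO-labelled ovary values lay below every library of pituitary and hypothalamus. In the uterus it measured 0.387, 0.238 and 0.631 CPM in KO-labelled and 0.171, 0.331 and 0.460 CPM in wild-type libraries. The difference between the ovarian effect and the mean of the others was -4.93 on the log2 scale (SE 0.48, edgeR adjusted p = 1.21e-05). For Trib2, with 110.5, 80.6 and 146 CPM in KO-labelled and 332, 329 and 278 CPM in wild-type ovaries, it was -1.49 (SE 0.22, edgeR adjusted p = 0.00541). Within the other tissues the log2 fold changes of Trib2 were -0.03, 0.08 and -0.01 in uterus, pituitary and hypothalamus. The number of genes past the threshold was 5 without the ovarian WT1, 9 without WT3, 39 without KO1 and 4 without KO3. With the replicate number as a block it was 1, Mgat4c, and Trib2 did not pass. Klhl31 and Gpx3 did not pass this test, at edgeR adjusted p of 0.674 and 0.248.

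**Figure D3:**
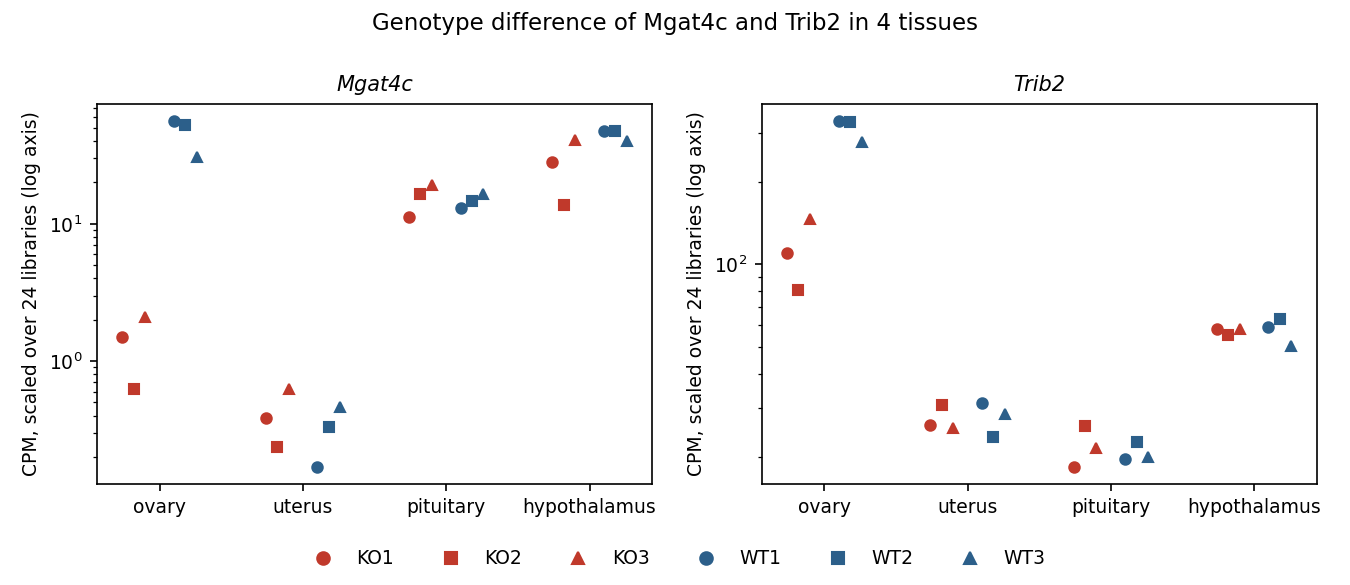
CPM on a log axis, scaled over all 24 libraries, of Mgat4c and Trib2 in KO-labelled (red) and wild-type (blue) libraries of 4 tissues, marked by shape. The groups lie apart in the ovary, where Mgat4c is at 1.49, 0.631 and 2.09 CPM in KO-labelled and 56.1, 52.4 and 30.9 CPM in wild-type libraries, and overlap in the other 3 tissues for both genes.

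Genes of steroid synthesis varied widely among the KO-labelled libraries. Of 16 tested, 12 had positive and 4 negative fold changes where 52.5% of all genes were positive (50.9% without KO2), and their median was 0.43 (0.26 without KO2) against 0.03 (0.01) over all genes. Star, which moves cholesterol into mitochondria, measured 1949, 8635 and 9864 CPM in KO-labelled libraries, against 5342, 803 and 3793 CPM in wild-type libraries. Cyp11a1, which makes pregnenolone, measured 5199, 12729 and 9637 CPM in KO-labelled libraries, against 6817, 5276 and 6405 CPM in wild-type libraries. Hsd3b1, which makes progesterone from it, measured 8706, 20057 and 13631 CPM in KO-labelled libraries, against 9655, 8964 and 9538 CPM in wild-type libraries. For Star, KO2 and KO3 were high and WT2 lowest, and KO1 lay inside the wild-type range. Cyp17a1, the thecal enzyme of androgen synthesis, measured 1.83, 100.4 and 108 CPM in KO-labelled libraries, against 343, 757 and 91.4 CPM in wild-type libraries, so that KO1 held almost none and the other 2 KO-labelled libraries lay near WT3 (log2 fold change -2.51, edgeR adjusted p = 0.597). An unadjusted p under 0.05 was reached by Fdxr, Tspo and Nr4a1, all higher, and by Nr5a1, lower, where 4.14% of all genes were higher and 3.54% lower at that p. Without KO2, 2 of 16 were higher and 1 lower at that p (12.5% and 6.25%), against 5.61% and 5.36% of all genes. Tspo and Nr5a1 were among them, and Fdxr and Nr4a1 were not. Tspo, a cholesterol-binding protein of the outer mitochondrial membrane, measured 40.8, 59.6 and 32.0 CPM in KO-labelled libraries, against 18.9, 16.9 and 28.5 CPM in wild-type libraries. Fdxr, the reductase that feeds electrons to mitochondrial steroid hydroxylases, measured 282, 506 and 311 CPM in KO-labelled libraries, against 227, 132 and 270.3 CPM in wild-type libraries. Nr5a1, which encodes the nuclear receptor SF-1, measured 223, 249 and 199 CPM in KO-labelled libraries, against 323, 403 and 312 CPM in wild-type libraries, every KO-labelled library below every wild-type one (log2 fold change -0.63, and -0.70 without KO2).

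The luteal list, which shares Star, Cyp11a1 and Hsd3b1 with the previous one, had 11 of 14 positive fold changes and a median of 0.50 (0.41 without KO2). Lhcgr, the luteinizing hormone receptor, measured 217, 1172 and 1417 CPM in KO-labelled libraries, against 633, 295 and 551 CPM in wild-type libraries. Hsd17b7, known in rodents as a luteal enzyme that binds the prolactin receptor, measured 48.2, 1785 and 3435 CPM in KO-labelled libraries, against 1658, 142 and 772 CPM in wild-type libraries. In both genes KO1 was the lowest library, WT2 the next, and KO2 and KO3 were the highest. The same order of those 4 held for the prostaglandin F receptor gene Ptgfr, at 94.8, 435 and 604 CPM in KO-labelled libraries, against 349, 97.4 and 163 CPM in wild-type libraries, in that KO2 and KO3 lay above all wild-type libraries and KO1 and WT2 were lowest. Akr1c18, which inactivates progesterone and is repressed by prolactin in the functional corpus luteum, measured 18.8, 35.6 and 27.1 CPM in KO-labelled libraries, against 164, 212 and 30.6 CPM in wild-type libraries. Here all KO-labelled libraries were low, WT3 lay inside their range and WT1 and WT2 were high (log2 fold change -2.32, edgeR adjusted p = 0.597). Of 9 genes of the prolactin receptor pathway 5 were positive, at a median of 0.12 (0.08 without KO2). The feedback inhibitor Cish measured 10.4, 387 and 239 CPM in KO-labelled libraries, against 61.1, 16.0 and 89.5 CPM in wild-type libraries. Socs1 measured 2.20, 62.6 and 17.5 CPM in KO-labelled libraries, against 3.11, 2.996 and 8.88 CPM in wild-type libraries. KO2 was the highest library for both and KO1 the lowest, so the KO-labelled libraries enclosed the wild-type ones.

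**Figure D4:**
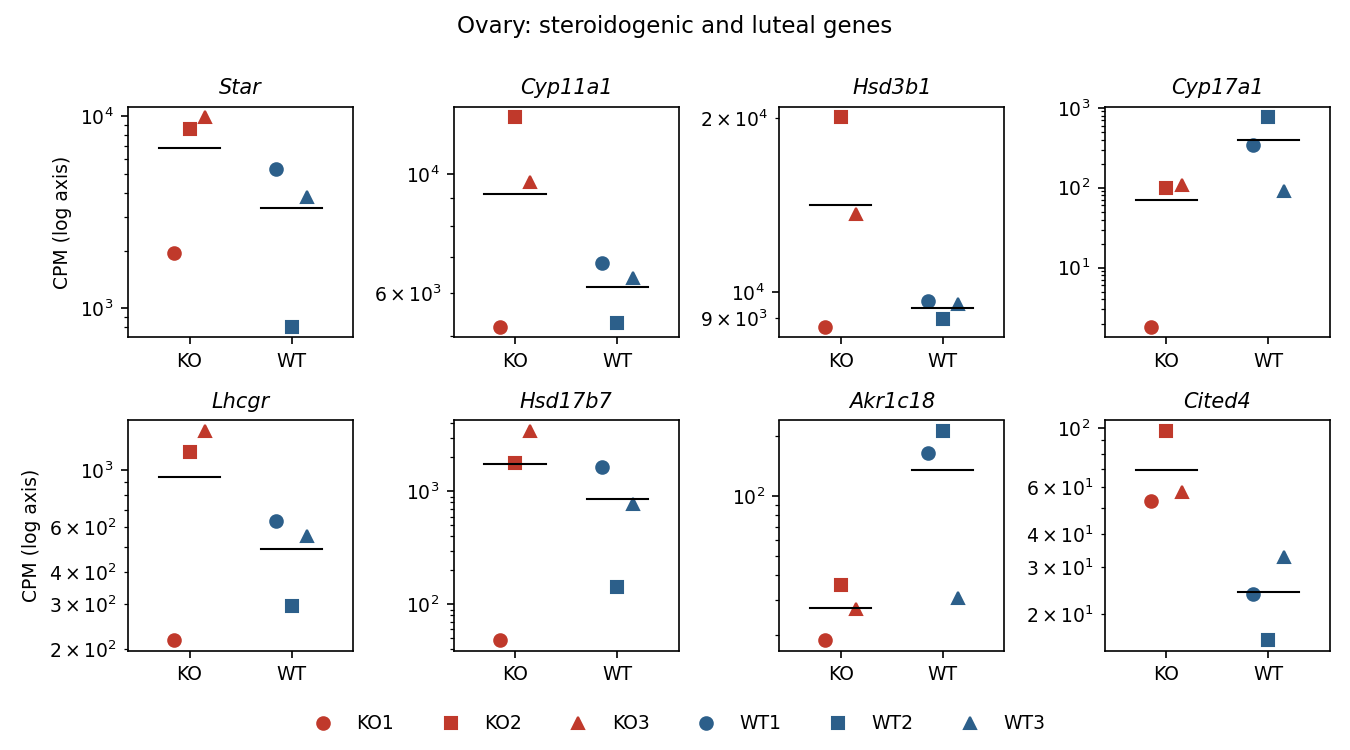
CPM on a log axis of 8 steroidogenic and luteal genes in KO-labelled (red, left) and wild-type (blue, right) ovary libraries, marked by shape, with a black line at each group's mean. KO1 is the lowest KO-labelled library in all 8 panels, and only for Cited4 do the groups lie apart.

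Genes of growing follicles had mostly negative fold changes. Of 20 granulosa genes 17 had negative fold changes (47.5% of all genes, and 49.1% without KO2), the median being -0.29, and -0.14 without KO2 with again 17 of 20. Fshr, the receptor for follicle-stimulating hormone, measured 14.3, 21.8 and 16.5 CPM in KO-labelled libraries, against 32.9, 51.8 and 30.5 CPM in wild-type libraries. Inhba, the activin and inhibin subunit, measured 91.8, 25.7 and 159 CPM in KO-labelled libraries, against 301, 282 and 228 CPM in wild-type libraries. Gja1, the gap junction connexin of granulosa cells, measured 2289, 1877 and 2965 CPM in KO-labelled libraries, against 4236, 3999 and 3601 CPM in wild-type libraries. In these 3 the groups did not overlap, at log2 fold changes of -1.13, -1.55 and -0.73, or -1.31, -1.10 and -0.57 without KO2. They were the 3 of 20 granulosa genes with an unadjusted p under 0.05, where 3.54% of all genes were lower at that p. Separate lower groups were found for 4 of 20, where 10% of all genes were lower without overlap. Without KO2, 3 were lower and 1 higher at that p, against 5.36% and 5.61% of all genes. Amh, made by small growing follicles, measured 129.7, 32.4 and 34.6 CPM in KO-labelled libraries, against 86.5, 80.7 and 175 CPM in wild-type libraries, where KO1 lay inside the wild-type range. Of 9 tested theca genes all had negative fold changes (median -0.36, and -0.23 with 8 of 9 without KO2), among them the retinaldehyde dehydrogenase gene Aldh1a1 at 3585, 2410.4 and 2230.3 CPM in KO-labelled libraries, against 5077, 6921 and 3335 CPM in wild-type libraries. Its groups overlapped, KO1 lying above WT3. Insl3, a defining theca gene, was too low to test.

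Oocyte genes depended on KO2. Of 21 tested, 11 were negative over all libraries (median -0.11), and 20 without KO2 (median -0.77), where 10 were lower at an unadjusted p under 0.05 against 5.36% of all genes. The list's median deviation from the wild-type mean was -0.35, 0.81 and -1.32 in KO1, KO2 and KO3 and -0.16, 0.25 and -0.09 in WT1, WT2 and WT3 (log2). Gdf9, the oocyte growth factor, measured 29.5, 91.9 and 14.8 CPM in KO-labelled libraries, against 32.2, 42.5 and 37.5 CPM in wild-type libraries. Zp3, the sperm-binding zona protein, measured 23.8, 36.3 and 14.2 CPM in KO-labelled libraries, against 30.1, 37.4 and 34.2 CPM in wild-type libraries. KO3 was lowest for both, and KO2 lay far above wild type for Gdf9 and inside its range for Zp3. Nlrp5, a maternal-effect gene of the subcortical complex, measured 20.5, 24.8 and 12.3 CPM in KO-labelled libraries, against 36.3, 49.4 and 35.7 CPM in wild-type libraries. Zp2, another zona protein, measured 50.5, 37.2 and 24.8 CPM in KO-labelled libraries, against 61.7, 86.8 and 70.3 CPM in wild-type libraries. For Nlrp5 and Zp2 all 3 KO-labelled libraries lay below the wild-type ones (log2 fold changes -1.08 and -0.96). Kit, the receptor on oocytes for granulosa-derived stem cell factor, which theca cells also express, measured 28.4, 14.7 and 24.8 CPM in KO-labelled libraries, against 63.4, 138 and 40.5 CPM in wild-type libraries, at -1.83. Its wild-type spread was wide, with WT2 far above WT1 and WT3. Ovulation and cumulus genes were 7 of 10 negative (median -0.33, -0.20 without KO2). Their lowest p belonged to Tnfaip6, a hyaluronan-binding protein of the cumulus matrix, at 0.749, 0.391 and 0.573 CPM in KO-labelled libraries, against 0.825, 25.2 and 0.908 CPM in wild-type libraries, so that WT2 alone was high.

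Proliferation and the signals that act between oocyte, granulosa and theca cells were examined next. Of 22 S phase and mitosis genes 21 had negative fold changes (median -0.42), and all 22 without KO2 (median -0.40). Mcm3, a subunit of the replicative helicase, measured 66.4, 41.9 and 36.3 CPM in KO-labelled libraries, against 74.5, 66.6 and 102 CPM in wild-type libraries. Ccne2, the S phase cyclin, measured 7.30, 4.54 and 6.30 CPM in KO-labelled libraries, against 8.88, 8.73 and 15.5 CPM in wild-type libraries. These were the genes among the 22 with separate groups, where 10% of all genes were lower without overlap, for Mcm3 with KO1 just below WT2. Top2a, the mitotic topoisomerase, measured 179, 94.5 and 126 CPM in KO-labelled libraries, against 205, 174 and 258 CPM in wild-type libraries. Mki67, the proliferation marker, measured 147, 84.8 and 125 CPM in KO-labelled libraries, against 136, 126 and 202 CPM in wild-type libraries. WT3 was the highest library for all 4 genes, and KO1 lay above WT2 for Top2a and Mki67. With Mcm4, 4 of the 22 had an unadjusted p under 0.05 where 3.54% of all genes were lower at that p, and 0 without KO2, against 5.36%. The E2F factors drive S phase genes, and 2 forms of their motif, TTTGGCGC and TTTCCCGC on either strand, were searched in the 300-base promoters of 18 of the 22 genes. The first stood in 3 genes, or 15.8% of the 19 promoters of the list, against 0.514% of all promoters. The second stood in 2 genes, or 10.5% of the 19, against 1.07% of all promoters. The Mcm3 promoter, shown here because it held both, lies at chr1:20820263-20820562 on the minus strand with the matches in capitals.
Mcm3: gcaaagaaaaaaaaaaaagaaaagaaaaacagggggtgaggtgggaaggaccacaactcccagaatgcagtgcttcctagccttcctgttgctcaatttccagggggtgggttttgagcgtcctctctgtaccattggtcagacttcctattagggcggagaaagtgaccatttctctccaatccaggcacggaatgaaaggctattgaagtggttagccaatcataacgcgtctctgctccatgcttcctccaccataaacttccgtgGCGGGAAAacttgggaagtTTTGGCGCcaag
Of 23 TGF-beta and BMP genes 15 were negative (median -0.22, -0.13 without KO2). Bmpr1b, a BMP type I receptor required for cumulus function in mice, measured 93.9, 52.0 and 156 CPM in KO-labelled libraries, against 234, 210.2 and 162 CPM in wild-type libraries, with KO3 close to WT3 (log2 fold change -1.004). Id2, a transcriptional target of BMP signals, measured 194, 459 and 318 CPM in KO-labelled libraries, against 185, 123 and 217 CPM in wild-type libraries, at 0.89 and with KO2 highest. Of 16 Hedgehog and Notch genes 12 were negative (median -0.18), and 8 without KO2. The Notch target Hey2 measured 32.7, 38.2 and 44.0 CPM in KO-labelled libraries, against 66.9, 44.6 and 72.6 CPM in wild-type libraries, at -0.68.

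The vascular and contractile compartments had mostly positive fold changes. All 12 smooth muscle and pericyte genes were positive (median 0.32), and 11 of 12 without KO2 (median 0.38). Des, the muscle intermediate filament, measured 89.7, 59.5 and 47.6 CPM in KO-labelled libraries, against 18.0, 34.7 and 34.9 CPM in wild-type libraries. Cnn1, the actin-binding calponin, measured 75.7, 111 and 54.2 CPM in KO-labelled libraries, against 43.0, 45.1 and 41.5 CPM in wild-type libraries. Their groups did not overlap, with KO1 highest for Des and KO2 for Cnn1, and the log2 fold changes were 1.17 and 0.89. Actg2, the enteric actin, was the third with an unadjusted edgeR p under 0.05, at 0.75. These 3 of 12 compare with 4.14% of all genes that were higher at that threshold. Without KO2 it was reached by 5 of 12 smooth muscle and pericyte genes, against 5.61% of all genes, and Actg2 did not reach it. Separate higher groups were found for 3 of 12, where 7.75% of all genes were higher without overlap. Of 16 endothelial and angiogenic genes 15 were positive with and without KO2 (median 0.31 and 0.41). The list's median deviation from the wild-type mean was -0.05, 0.18 and 0.75 in KO1, KO2 and KO3 (log2), so KO3 was the high library. In WT1, WT2 and WT3 it was 0.09, -0.05 and -0.02. Esam, an endothelial adhesion molecule, measured 41.3, 54.8 and 62.1 CPM in KO-labelled libraries, against 33.5, 34.7 and 40.6 CPM in wild-type libraries, at 0.54, while the defining endothelial gene Pecam1 measured 102, 183 and 243 CPM in KO-labelled libraries, against 136, 143 and 122 CPM in wild-type libraries and its groups overlapped. Stroma genes were near 0 in the median with KO2 (0.03) and above it without (0.36, 12 of 15 positive). Their median deviation was 0.55, -1.04 and 0.01 in KO1, KO2 and KO3, so without KO2 it was KO1 that was high. In WT1, WT2 and WT3 it was -0.05, 0.04 and 0.02. Pdgfra, a fibroblast receptor, measured 324, 58.5 and 174 CPM in KO-labelled libraries, against 176, 188 and 185 CPM in wild-type libraries, the highest and the lowest of the 6 values both being KO-labelled. Surface epithelium markers were nearly missing from KO2: Upk3b measured 73.8, 0.548 and 52.6 CPM in KO-labelled libraries, against 33.8, 29.8 and 44.9 CPM in wild-type libraries. Msln measured 22.2, 0 and 18.3 CPM in KO-labelled libraries, against 14.0, 11.3 and 15.9 CPM in wild-type libraries. The median of their list was -0.12 with KO2 and 0.11 without it.

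Immune gene lists had positive medians, apart from the few neutrophil genes. Of 16 macrophage genes 13 had positive fold changes and 7 an unadjusted p under 0.05, where 4.14% of all genes were higher at that p, and without KO2 the numbers were 15 and 7 against 5.61%. The median was 0.51 (0.49 without KO2). C1qa, a chain of the complement protein C1q made by tissue macrophages, measured 128, 153 and 82.3 CPM in KO-labelled libraries, against 66.3, 60.1 and 77.5 CPM in wild-type libraries. C1qb, another chain, measured 103, 141 and 90.1 CPM in KO-labelled libraries, against 68.8, 59.3 and 76.7 CPM in wild-type libraries. All KO-labelled values lay above all wild-type ones, with KO3 near the top of the wild-type range, at log2 fold changes of 0.83 and 0.71. The other 5 were C1qc (0.94), the lysosomal protein gene Cd68 (0.85), lysozyme Lyz2 (0.79), the protease Ctss (0.53) and the signalling adaptor Tyrobp (1.22). The lineage-defining receptor Csf1r measured 59.5, 25.7 and 37.8 CPM in KO-labelled libraries, against 45.9, 36.5 and 44.0 CPM in wild-type libraries. Emr1, the F4/80 antigen, measured 25.3, 13.8 and 17.0 CPM in KO-labelled libraries, against 19.2, 14.1 and 16.8 CPM in wild-type libraries, and in both the groups overlapped. Of 13 antigen presentation genes 12 were positive, and 13 without KO2 (median 0.40 and 0.31). H2-D1, an MHC class I gene with near-identical relatives and so uncertain, measured 80.7, 87.7 and 89.8 CPM in KO-labelled libraries, against 53.6, 65.6 and 67.2 CPM in wild-type libraries. The immunoproteasome gene Psmb8 measured 20.04, 31.1 and 17.6 CPM in KO-labelled libraries, against 13.1, 14.1 and 12.3 CPM in wild-type libraries. Lymphocyte genes were scarce, 7 of 13 being tested. Nkg7, of cytotoxic cells, measured 0.937, 0.861 and 0.729 CPM in KO-labelled libraries, against 0.317, 0.195 and 0.252 CPM in wild-type libraries. Gzma, a granzyme of natural killer and T cells, measured 1.69, 2.43 and 1.41 CPM in KO-labelled libraries, against 0.507, 1.17 and 0.757 CPM in wild-type libraries. Among neutrophil genes 3 of 9 were tested, and they went both ways. S100a8 measured 0.328, 0.470 and 0.260 CPM in KO-labelled libraries, against 1.40, 2.21 and 0.757 CPM in wild-type libraries. It was lower in each KO-labelled library, on 7, 6 and 5 counts in KO1, KO2 and KO3. Csf3r was higher in each, at 3.09, 2.97 and 2.19 CPM in KO-labelled libraries, against 2.16, 2.02 and 1.97 CPM in wild-type libraries.

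Interferon-stimulated genes had 22 positive fold changes among 24 tested (median 0.58), and 23 without KO2 (median 0.32). Irf7, the factor that amplifies interferon production, measured 23.4, 28.2 and 16.7 CPM in KO-labelled libraries, against 16.0, 10.9 and 11.7 CPM in wild-type libraries. Oas1a, a sensor of double-stranded RNA, measured 2.62, 3.60 and 2.76 CPM in KO-labelled libraries, against 1.21, 1.303 and 1.77 CPM in wild-type libraries. KO2 was the highest library for both, the groups did not overlap, and the log2 fold changes were 0.82 and 1.06. Isg15, the ubiquitin-like modifier, measured 7.59, 15.03 and 7.34 CPM in KO-labelled libraries, against 8.06, 5.34 and 4.09 CPM in wild-type libraries, and WT1 exceeded KO1 and KO3. With Usp18 (0.95) and Bst2 (1.13), 4 of 24 genes had an unadjusted p under 0.05, where 4.14% of all genes were higher at that p, and 2 of 24 (8.33%) without KO2, against 5.61%. The interferon-stimulated response element was searched on both strands as GAAA, any 2 bases and GAAA again. It stood in the promoters of 11 of the 17 list genes with an entry. Of the 20 promoters of these 17 genes 55% held it, against 3.44% of all promoters. The Oas1a promoter (chr5:120907476-120907775, minus strand) and the Isg15 promoter (chr4:156200769-156201068, minus strand) are shown as examples, with overlapping matches joined in capitals.
Oas1a: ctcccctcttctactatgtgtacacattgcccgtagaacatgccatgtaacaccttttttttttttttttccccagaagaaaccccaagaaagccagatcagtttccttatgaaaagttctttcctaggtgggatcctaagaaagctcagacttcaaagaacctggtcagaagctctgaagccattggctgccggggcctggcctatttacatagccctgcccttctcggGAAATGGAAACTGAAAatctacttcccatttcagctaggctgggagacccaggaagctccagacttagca
Isg15: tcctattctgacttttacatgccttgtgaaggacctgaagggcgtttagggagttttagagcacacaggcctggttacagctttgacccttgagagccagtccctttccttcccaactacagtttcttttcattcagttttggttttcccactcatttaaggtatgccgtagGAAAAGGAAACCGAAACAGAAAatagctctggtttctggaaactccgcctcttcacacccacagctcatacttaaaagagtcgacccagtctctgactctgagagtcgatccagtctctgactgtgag
Both promoters carry the element, and of these genes Oas1a alone had separate groups.

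Cholesterol synthesis set the KO-labelled libraries apart from each other. Of 19 genes 18 had positive fold changes, and 19 without KO2, at medians of 0.86 and 0.49, yet 0 had an unadjusted edgeR p under 0.05. The list's median deviation was -1.26, 1.25 and 1.29 in KO1, KO2 and KO3, against 0.29, -0.29 and 0.08 in WT1, WT2 and WT3 (log2). Mvd, which decarboxylates mevalonate diphosphate, measured 15.2, 294 and 123 CPM in KO-labelled libraries, against 51.1, 24.8 and 57.1 CPM in wild-type libraries. KO1 was the lowest of all 6 libraries and KO2 and KO3 were the highest. The luteal list stood at -0.48, 0.74 and 0.98 in KO1, KO2 and KO3, so KO1 was low in both lists where the other KO-labelled libraries were high.

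**Figure D5:**
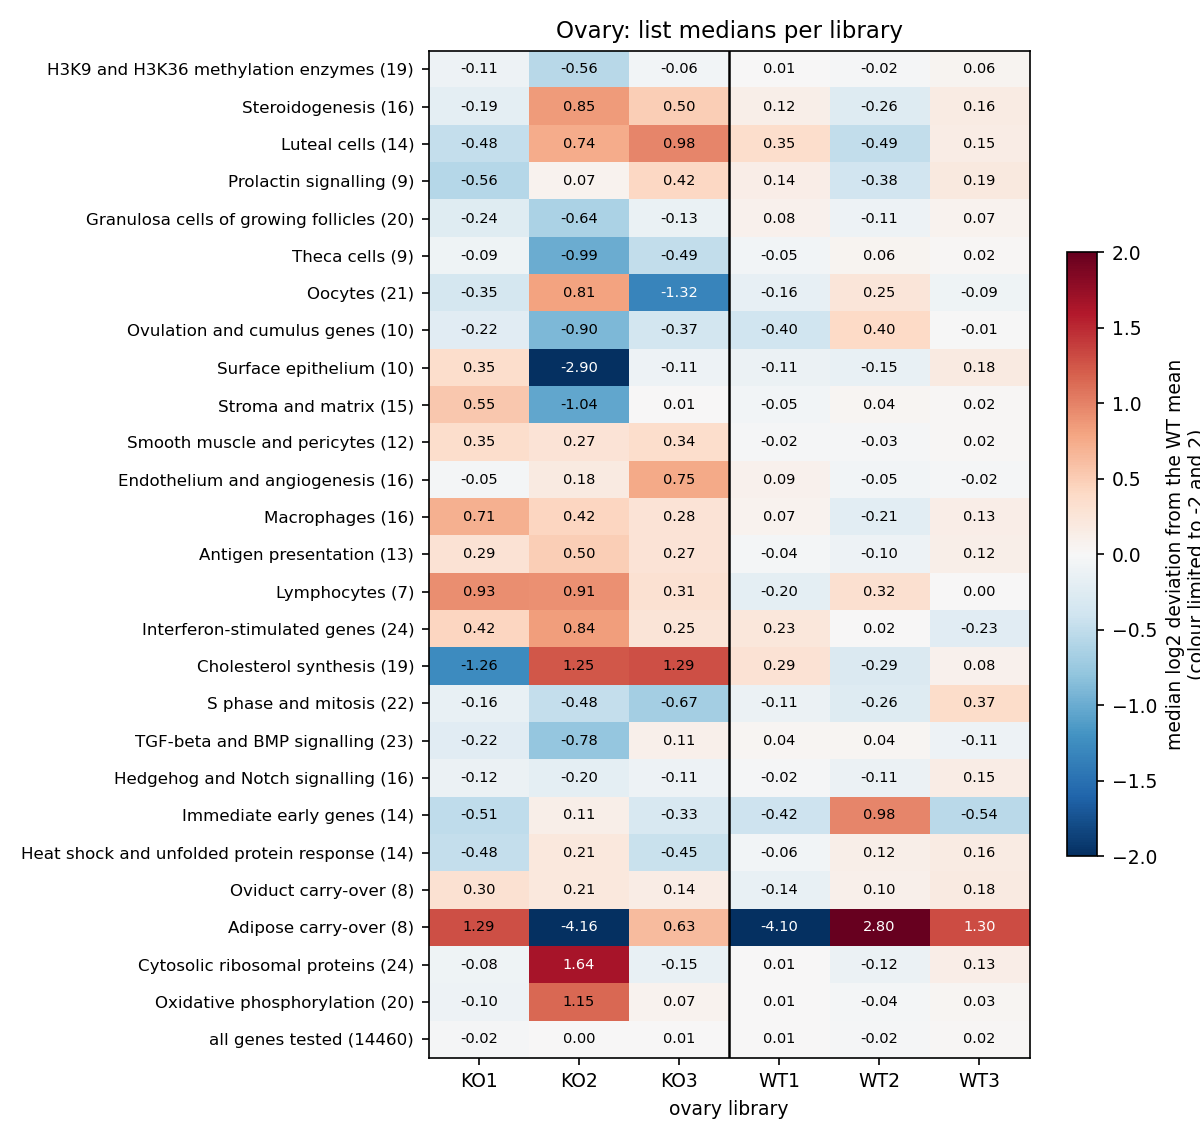
Median log2 deviation of each gene list from the wild-type mean (colour and printed value) in the 3 KO-labelled (left) and 3 wild-type (right) ovary libraries, with the number of tested genes in brackets. KO2 differs from KO1 and KO3 in surface epithelium, oocyte, ribosomal protein and oxidative phosphorylation genes, and KO1 from KO2 and KO3 in cholesterol synthesis, while smooth muscle and macrophage genes are above 0 in all 3 KO-labelled libraries.

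Handling and stress genes bear on tissue collected at dissection. Of 14 immediate early genes 9 were negative (median -0.34, -0.49 without KO2), and the list's median deviation in WT2 was 0.98 where the next highest library, KO2, had 0.11. Fos measured 8.71, 7.43 and 8.02 CPM in KO-labelled libraries, against 13.4, 22.99 and 9.54 CPM in wild-type libraries. Its relative Fosb measured 0.656, 0.783 and 2.97 CPM in KO-labelled libraries, against 3.36, 37.9 and 1.51 CPM in wild-type libraries, so WT2 was highest for both. The orphan receptor Nr4a1, which is in this list and among the steroidogenic genes, measured 45.1, 128 and 241 CPM in KO-labelled libraries, against 54.5, 57.8 and 39.7 CPM in wild-type libraries. KO2 and KO3 were its highest libraries, and KO1 lay inside the wild-type range. Of 14 heat shock and unfolded protein response genes 8 were negative, and 12 without KO2 (medians -0.12 and -0.42). Hspa5, the chaperone of the endoplasmic reticulum, measured 1201, 465 and 952 CPM in KO-labelled libraries, against 1573, 2411 and 1651 CPM in wild-type libraries. Its co-chaperone Dnajb9 measured 82.9, 68.1 and 83.8 CPM in KO-labelled libraries, against 123, 147 and 97.7 CPM in wild-type libraries. KO2 was the lowest library for both. Hsph1, a cytosolic co-chaperone, measured 108, 116 and 112 CPM in KO-labelled libraries, against 169.5, 142 and 216 CPM in wild-type libraries. Hsp90aa1, the inducible Hsp90, measured 263, 236 and 317 CPM in KO-labelled libraries, against 369, 373 and 417 CPM in wild-type libraries. All KO-labelled values of these 4 lay below all wild-type ones. Their log2 fold changes were -1.11, -0.64, -0.65 and -0.51, and -0.79, -0.54, -0.66 and -0.40 without KO2. Of the 14 genes, 5 had separate lower groups, where 10% of all genes were lower without overlap. At an unadjusted edgeR p under 0.05, 4 of 14 were lower, against 3.54% of all genes, and 6 of 14 without KO2, against 5.36%.

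Enzymes and readers of H3K9 and H3K36 methylation, the marks on which KDM4A acts, had 17 of 19 negative fold changes over all libraries and 13 without KO2 (medians -0.27 and -0.06), and 0 had an unadjusted edgeR p under 0.05 over all libraries, and 1, Kdm1a, without KO2 (5.26%, against 5.36% of all genes). Kdm1a, a demethylase of H3K4 and H3K9, measured 85.2, 90.5 and 89.0 CPM in KO-labelled libraries, against 112, 117 and 104 CPM in wild-type libraries. Cbx5, which encodes the heterochromatin protein HP1 alpha, measured 164, 104 and 159.8 CPM in KO-labelled libraries, against 197, 191 and 191 CPM in wild-type libraries. Both were among the 7 of 19 genes with separate lower groups, where 10% of all genes were lower without overlap. Their log2 fold changes were -0.33 and -0.44, and -0.34 and -0.24 without KO2. Setdb1, an H3K9 methyltransferase, measured 69.5, 54.9 and 68.0 CPM in KO-labelled libraries, against 63.0, 64.5 and 73.7 CPM in wild-type libraries, and its groups overlapped.

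Genes of neighbouring tissues and of library quality moved with single libraries. The summed level of 8 adipose genes was 671, 40.7 and 509 CPM in KO1, KO2 and KO3, against 25.6, 2284 and 731 CPM in WT1, WT2 and WT3, and the defining gene Adipoq measured 38.4, 0.548 and 20.5 CPM in KO-labelled libraries, against 0.127, 165 and 46.1 CPM in wild-type libraries. Fat-associated RNA was thus lowest in WT1 and KO2 and highest in WT2, and all 8 fold changes were negative (median -1.26, -0.79 without KO2). The oviduct, which the protocol says was flushed for embryos, adjoins the ovary. The summed level of 8 oviduct genes was 184, 80.8 and 145 CPM in KO-labelled, against 139, 176 and 172 CPM in wild-type libraries. Most of that sum was Wt1, at 169, 57.4 and 132 CPM in KO-labelled libraries, against 129.8, 159.6 and 158 CPM in wild-type libraries, which is also on the granulosa and surface epithelium lists, and no other member passed 14.2 CPM in any library. The oviduct glycoprotein gene Ovgp1 measured 0.187, 1.41 and 0.0521 CPM in KO-labelled libraries, against 0.127, 5.54 and 3.53 CPM in wild-type libraries. Rsph1 went the other way, at 6.65, 14.2 and 6.30 CPM in KO-labelled libraries, against 4.63, 3.39 and 4.90 CPM in wild-type libraries. Of the 8 fold changes 4 were positive and 4 negative, and 6 were positive without KO2 (medians 0.07 and 0.27). Of Rn45s and 4 nuclear long non-coding RNAs, Rn45s, Malat1 and Neat1 were highest in KO2, while Xist was lowest there and Meg3 lay inside the wild-type range. All 5 had negative fold changes without KO2. Of 7 erythrocyte genes 4 had no count in any library. All 24 cytosolic ribosomal protein genes had positive fold changes (median 0.68), and 9 of 24 without KO2 (median -0.11). Oxidative phosphorylation genes were 19 of 20 positive, and 6 without KO2 (medians 0.49 and -0.02). Their part in the other results was not tested beyond the values without KO2.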

How the data were processed

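Whole-ovary messenger RNA was measured in 3 KO-labelled and 3 wild-type libraries. The labels' protocols give RNA integrity numbers of at least 8, 0.5 µg of total RNA, poly-A selection, the TruSeq RNA kit and 13 PCR cycles. That kit does not mark strand, so reads of overlapping genes on opposite strands cannot be told apart. Per the submitters' processing notes, FastQC, Trimmomatic, STAR, HTSeq and DESeq2 were used on mm10, with no versions and no annotation given in the sources used here. Raw counts per gene symbol were deposited by the authors. Per the file headers, their comparison table adds the log2 fold change of KO against WT with its standard error, a p-value and an adjusted p-value, as deposited by the authors.

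Of 24222 symbols, 27 are spreadsheet dates and were dropped before scaling, which left 24195. The dates held 0.199% to 0.276% of the counts of an ovary library. Genotypes were compared with edgeR 4.0.16 in R 4.3.3 (quasi-likelihood F test, TMM, filterByExpr, robust, two-sided) with Benjamini-Hochberg adjustment over all genes tested at FDR 0.05. The effect in the ovary was set against the mean effect of the other 3 tissues in 1 fit over 24 libraries. Libraries of different tissues may come from the same animals, which the labels do not say. The tests were tried on simulated counts. Log values for principal components and list medians used a prior count of 2. Lists are described by counts and medians beside all genes tested.

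Alternatives tried were DESeq2 1.42.0, limma-voom (limma 3.58.1), RLE in place of TMM, no filter on low counts or one of 1 CPM, the replicate number as a block, 1 fit over 24 libraries, Rn45s left out, GC content and length trends removed (99.4% of tested genes had both values), and each library left out. Replicate pairs differed by more than counting noise (the lowest chi-square of a pair was 17.6 per degree of freedom), and the labels do not name separate animals, so p-values measure the spread between these libraries. Counting errors at the given depths cover counting only.

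Members, lists and tests were chosen with earlier results of these data known. Named genes are the Kdm4 family with Rn45s, the 15 genes per direction with the smallest p among those whose groups do not overlap and whose mean reaches 1 CPM (predicted, Rik and clone symbols left out), and of each list the first 2 genes and the 2 with the smallest p. Further list members were named after their values were seen. Of 24195 symbols 23837 had a length in GENCODE M21, 810 of them through an older symbol. Promoters came from RefSeq (GRCm38.p6). Values of 1 further gene are not reported here.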

Additional observations from a re-analysis of the deposited data

Results flagged for a closer look

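The KO-labelled over wild-type difference of Mgat4c in the ovary differed from the mean of the other 3 tissues by -4.93 on the log2 scale, in an edgeR test of that difference over 24 libraries (adjusted p = 1.21e-05), and was lower in 3 of 3 KO-labelled ovary libraries. The same difference of Trib2 was -1.49 (adjusted p = 0.00541), again with 3 of 3 KO-labelled libraries lower. It ran from -1.72 to -1.28 with an ovary library left out.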

How the results depend on the processing

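The number of genes past FDR 0.05 in the ovary, 0 by edgeR, was 1 with no filter on low counts, 48 with DESeq2 and 34 in 1 fit over all 24 libraries, and ran from 0 to 2 with a library left out. The 2 were reached without KO2, also with GC content and length trends removed. The number with an unadjusted p under 0.05, 1110, was 2463 in 1 fit over all 24 libraries and ran from 416 to 1859 with a library left out. DESeq2 split it into 964 higher and 597 lower, and limma-voom into 413 and 544. The labels do not say whether the replicate numbers pair the samples. Same-numbered libraries deviated together at correlations of -0.26 to -0.07. With 3 libraries per genotype and KO2 standing apart, these values cannot decide it. The fit with the replicate block passed 0 genes with 513 at an unadjusted p under 0.05, and 567 with GC content and length trends removed as well. For the ovary against the other tissues, 2 genes passed by edgeR, 57 with DESeq2 and 1, Mgat4c, with the replicate block, and 2 to 39 with a library left out. Trib2 did not pass with the block (-1.53, edgeR adjusted p = 0.106). Of 113 genes whose fold change was recomputed, 13 changed direction under at least 1 setting. The 113 include every tested gene that the report gives values for, except Csf3r and Rsph1. Their log2 fold changes then were, with limma-voom, Gdf9 -0.19, Upk3b -1.10 and Pdgfra -0.33. They were, with the replicate block, Gdf9 -0.11, Upk3b -0.70 and Pdgfra -0.28. They were, in 1 fit over all 24 libraries, Msln 0.0014. They were, with GC content and length trends removed, Kdm4b -0.13, Gdf9 -0.046, Setdb1 0.20 and Pdgfra -0.0036. They were, with the replicate block and those trends removed, Kdm4b -0.16, Gdf9 -0.27, Setdb1 0.19, Upk3b -0.70 and Pdgfra -0.32. They were, without KO2 and with those trends removed, Kdm4c 0.11, Rn45s -0.58, Gdf9 -0.72, Setdb1 0.066, Csf1r 0.15, Msln 0.49, Malat1 -0.32 and Neat1 -0.16. With a library left out, log2 fold changes ran from -0.033 to 0.23 for Kdm4b, from -0.58 to 4.22 for Rn45s, from -0.12 to 0.36 for Emr1, from -0.74 to 0.70 for Gdf9, from -0.13 to 0.051 for Setdb1, from -0.44 to 0.82 for Upk3b, from -0.41 to 0.23 for Csf1r, from -0.66 to 0.46 for Pdgfra, from -0.57 to 0.58 for Msln, from -0.65 to 0.029 for Wt1, from -0.51 to 1.98 for Malat1 and from -0.14 to 1.84 for Neat1. Without KO2 alone, Gdf9 was at -0.74, Rn45s at -0.58 and Msln at 0.58. The other 100 kept their direction in every setting run. List medians changed sign for 5 of 30 lists without KO2 and for 5 without WT2.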

Other observations

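By chromosome, a breakdown made after the values of the leading genes were seen, 5 of the 15 leading lower genes and 0 of the 15 leading higher genes lie on chromosome X. That chromosome carries 512 of the 14460 genes tested, so 0 of 15 is not read as a result. Of 512 X-linked genes tested, 34 were lower at an unadjusted edgeR p under 0.05 (6.64%, against 3.54% of all genes) and 10 were higher (1.95%, against 4.14%). Without KO2 the shares were 9.16% lower and 3.24% higher, against 5.36% and 5.61% of all genes. The median log2 fold change on chromosome X was -0.10, and -0.04 without KO2. Chromosome X was not alone in this. Chromosome 18 had a median of -0.12, and -0.06 without KO2, with 5.13% lower and 0.256% higher. Chromosome 13 had 6.24% lower and 1.89% higher, and 8.94% lower without KO2. Other chromosomes went the opposite way. Medians were 0.13 on chromosomes 7, 17 and 19, 0.11 on chromosome 15 and 0.09 on chromosome 11 (0.05 to 0.07 without KO2). Chromosome 19 had 6.15% higher and 2.25% lower. Whether the GC content and length trends of the libraries relate to these shares was not tested. Chromosome 4, which carries Kdm4a, had 3.63% lower and 3.52% higher.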
